A study of Homo sapiens with 24 samples.

Results

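The comparison described here was the depletion of the circular RNA ciRS-7, also called CDR1as, by an Argonaute-processed short hairpin (agoshRNA) against its own control. It took 6 of the 24 libraries of the series, 3 knockdown libraries (KD) and 3 libraries of the control labelled NTC, chosen by their column names. The other 18 libraries, from CasRx-based setups and their controls, were left aside. Both arms were cells labelled SH-SY5Y, a noradrenergic neuroblastoma line, transfected with an agoshRNA expression vector with Lipofectamine 3000, with fresh medium after an overnight incubation. KD cells received the vector against ciRS-7 and NTC cells the control vector, whose hairpin sequence is not given in the sources used here. RNA was harvested at 48 h, selected for poly(A) tails and sequenced as non-stranded read pairs of 100 nt. No untransfected cells were part of the comparison, so what the vector and the transfection reagent share between the arms cannot be seen. The study set out to look for effects of the knockdown tools beyond their target.

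ciRS-7 is a circle spliced from a long transcript that runs antisense to the gene CDR1. It is known as a binding platform for the microRNA miR-7, and a near-complementary site for miR-671 lets Argonaute 2 slice it. An agoshRNA is a hairpin with a stem too short for Dicer, which Argonaute 2 itself cleaves and then uses as a guide, so that it can slice a matching RNA and, through its seed, touch RNAs with partial matches.

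Printed here are the microRNAs that pair with the circle and the repeated site that matches the miR-7 seed, because the miR-7 site lists below depend on it. The microRNAs are from RefSeq on GRCh38.p14, 5′ to 3′, with the seed, bases 2 to 8, in capitals. hsa-miR-7-5p has the same mature sequence from MIR7-1 at chr9:83969811-83969834 on the minus strand and from MIR7-3 at chr19:4770700-4770723 on the plus strand. hsa-miR-671-5p lies at chr7:151238449-151238471 on the plus strand.
hsa-miR-7-5p: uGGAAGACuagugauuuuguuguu
hsa-miR-671-5p: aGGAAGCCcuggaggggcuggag
In GENCODE 29 the circle's exon is carried by the LINC00632 transcript ENST00000625883.2, which has 2 exons and 1878 nt on the plus strand of chromosome X of GRCh38. A search of that transcript for GTCTTCC, the match to the miR-7 seed, found 67 copies on its sense strand, of which 59 were followed by A. The distance from one copy to the next had a median of 18 nt and a range of 17 to 55 nt. The first 4 copies, with the match in capitals, show how close the repeats lie to each other.
site 1, chrX:140783186-140783208: gcacctgtgtcaagGTCTTCCaa
site 2, chrX:140783204-140783226: tccaacaactccggGTCTTCCag
site 3, chrX:140783222-140783244: tccagcgacttcaaGTCTTCCaa
site 4, chrX:140783241-140783263: ccaataatctcaagGTCTTCCag
For comparison, 966 of 19484 genes with an annotated 3′ UTR (4.96%) held at least 1 copy of the longer site GTCTTCCA there.

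Raw counts of the 6 libraries summed to 11678756 in KD C at the lowest and 15206817 in NTC B at the highest. A library had 10 or more counts in 16947 to 17975 genes. Mitochondrially encoded genes made up 3.95 to 5.13% of a library, and its 10 top genes 6.58 to 8.03%. The count columns carry the letters A, B and C in each arm, and the libraries are named by arm and letter. Levels are given as CPM, counts divided by the DESeq2 size factor and scaled to the mean library total, and they are not corrected for gene length. The labels do not say whether the 3 libraries of an arm came from separate cultures. With the letter in the model, the p-values for the arm therefore measure the spread of KD minus NTC between these 3 pairs. Without the letter they measure the spread between these libraries. As in any bulk sample, fewer cells expressing a gene and less of its RNA per cell cannot be told apart.

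Several defining markers of the labelled cell line were at or near 0 in both arms. Of 20 noradrenergic neuroblastoma markers, 10 lay under 1 CPM on average and 6 above 10 CPM, with a median of 0.64 CPM. PHOX2A, a core regulator of noradrenergic identity, averaged 0.06 CPM, the noradrenaline-making enzyme DBH 0.03 CPM, STMN2 0.01 CPM and ELAVL4 0.01 CPM, while TFAP2B and DLK1 had no count in any of the 6 libraries. Markers of that list that were present included NEFL at 89 CPM, NEFM at 37.6 CPM and GATA2 at 32.4 CPM. Of 15 kidney-lineage genes listed for HEK293, 8 lay above 10 CPM, among them HOXA9 at 78.9 CPM and HOXD10 at 72 CPM, and 2 lay under 1 CPM, PAX8 with no count in any library and OSR1 at 0.11 CPM. Of 16 mesenchymal neuroblastoma markers, 9 lay above 10 CPM, with VIM at 909 CPM, and 4 lay under 1 CPM, COL1A2, CD44, AEBP1 and MEOX1. The 3 lists were written with earlier results of these libraries known. The cells are therefore called by their label below, and the tissue-specific meaning of neuronal genes was not assessed.

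Linear transcripts of the targeted locus were read at low depth and did not separate the arms. A circle has no poly(A) tail, so these counts do not measure the depletion of ciRS-7 itself. LINC00632 (ENSG00000203930.10_2, hg19 chrX:139791932-139854844, plus strand), the host transcript, had 16, 72 and 101 counts in KD A, B and C and 31, 78 and 107 counts in NTC A, B and C. Only the A pair was apart, and the order of the libraries followed the letters in both arms. Its paired log2 fold change was -0.22 (SE 0.34, adjusted p = 1 in DESeq2), and without the A pair it was 0.04. CDR1 (ENSG00000184258.6_2, hg19 chrX:139864570-139867036, minus strand), which lies on the opposite strand of the circle, had 3, 26 and 0 counts in KD and 2, 22 and 11 counts in NTC. The gene the files call CDR1-AS (ENSG00000281508.1_1, hg19 chrX:139865341-139866825, plus strand) had 1, 15 and 0 counts in KD and 2, 13 and 9 counts in NTC, too few for the test. These annotations overlap and the reads carry no strand, so reads of CDR1 and CDR1-AS cannot be told apart. Both were listed at 0 in KD C and present in NTC C. For CDR1 the paired log2 fold change was -0.76 (SE 0.91, adjusted p = 1 in DESeq2), and without the C pair it was 0.44.

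Across all genes no difference between KD and NTC passed the test. The paired DESeq2 model, with the letter as a block, tested 17806 genes and called 0 at an adjusted p under 0.05 (0%), and the smallest adjusted p was 1. At an unadjusted p under 0.05 there were 105 genes (0.59%), fewer than the share of 0.05 awaited where no gene differs. Of the 105, 19 were higher in KD (0.107%) and 86 lower (0.483%). That split depended on the method. The edgeR quasi-likelihood test also called 0 genes, with a smallest adjusted p of 0.617, and had 408 at an unadjusted p under 0.05, 156 higher and 252 lower. DESeq2 with offsets for transcript GC content, an alternative chosen after seeing the data, called 0 genes and had 124, with 56 higher and 68 lower, and 44 of them were among the 105. Without the letter as a block, DESeq2 called 0 genes and had 0 at an unadjusted p under 0.05. Leaving out the B pair ended the absence of calls: 173 genes then passed and 2172 had an unadjusted p under 0.05, and those genes are described further down.

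Fitted differences were small. The median standard error of a log2 fold change was 0.231 in the paired model and 0.533 without the letter. The paired log2 fold changes lay between -0.62 and 0.58 from the 1st to the 99th percentile of genes, and 33 genes (0.185%) exceeded 1 in size, of which 1, DHRS2, averaged 50 or more counts. In 2086 genes (11.7%) KD was above its same-letter NTC library in all 3 letters, and in 1789 (10%) it was below in all 3. Every KD library lay above every NTC library in 51 genes (0.286%) and below every one in 79 (0.444%). No gene had at least 20 counts in each library of 1 arm and at most 3 in each of the other. In the authors' deposited table, 111 of 43760 genes with a p-value (0.254%) were under 0.05 and the smallest adjusted p was 1. Of those genes 3 had a p under 0.05 in the paired fit as well: DHRS2, RPL14P1, a processed pseudogene of RPL14 for which the division of reads was not tested, and one of the copies of a small nucleolar RNA listed as snoU13 (ENSG00000238692.1, chromosome 11). Their paired log2 fold changes were -1.01 (SE 0.35), -0.56 (SE 0.24) and -1.52 (SE 0.74). RPL14P1 and snoU13 were picked out after their values were seen.

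Among genes averaging 50 or more counts with the same sign in 3 of 3 letters, the 12 with the lowest statistics included CCT2, DHRS2, EEF1A1 and DYNC1H1. CCT2, a subunit of the chaperonin that folds actin and tubulin, was at 93.8, 378 and 182 CPM in KD A, B and C and at 178, 425 and 264 CPM in NTC A, B and C. The arms overlapped because the letters differed by more than the arms. Its log2 fold change was -0.54 (SE 0.18). EEF1A1, the elongation factor that brings aminoacyl-tRNA to the ribosome, was at 4971, 13713 and 10403 CPM in KD and at 7484, 15230 and 14578 CPM in NTC, a log2 fold change of -0.41 (SE 0.16). Its processed pseudogene EEF1A1P5, for which the division of reads with EEF1A1 was not tested, had -0.47 (SE 0.18). DYNC1H1, the heavy chain of cytoplasmic dynein, was at 299.5, 438 and 191 CPM in KD and at 429, 472 and 309 CPM in NTC. It had a log2 fold change of -0.44 (SE 0.17). For CCT2, EEF1A1, EEF1A1P5 and DYNC1H1 the difference in the B pair was the smallest of the 3. For DHRS2 it was the largest, at -1.19.

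DHRS2, a short-chain dehydrogenase, had the largest difference of this group. Its counts were low, at 2.64, 1.67 and 5.06 CPM in KD and 6.19, 4.45 and 6.95 CPM in NTC. KD C was above NTC B, so the arms overlapped in spite of a log2 fold change of -1.01 (SE 0.35). The other 7 of the 12 were PLEKHB2, SCRN1, CHMP3, RP11-1017G21.4, NFYA, VPRBP and BBS4, with log2 fold changes from -0.50 to -0.45. CHMP3 belongs to the ESCRT-III machinery of membrane scission, NFYA is the subunit of the CCAAT-binding factor that contacts DNA, and BBS4 belongs to the BBSome of cilia.

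The 12 genes with the highest statistics were led by COL1A1 and GDF15. COL1A1, a chain of type I collagen, was at 24.5, 8.87 and 22.1 CPM in KD and at 17 (A), 5.15 (B) and 14 (C) CPM in NTC. KD was higher in each pair, as the choice of these genes required, and both B libraries were the lowest of their arm. Its log2 fold change was 0.65 (SE 0.22). GDF15, a cytokine secreted by stressed cells and a p53 target, was at 5.22, 3.94 and 10.6 CPM in KD and 2.86, 1.74 and 6.17 CPM in NTC, with a log2 fold change of 0.92 (SE 0.32). SPINT2, an inhibitor of serine proteases, was at 78.2, 49.3 and 79.4 CPM in KD and 56.8, 45.3 and 49.5 CPM in NTC, with a log2 fold change of 0.42. ATP6AP1, an accessory subunit of the vacuolar proton pump, was at 141, 77.4 and 165 CPM in KD and 106, 71.3 and 107 CPM in NTC, with 0.39. In both genes KD B lay below NTC A, and the B pair was the closest. The other 8, FAM171A2, ZNF48, SEMA4B, SPATA2L, KLF16, the endocytic receptor LRP1, PWWP2B and the mitochondrial rhodanese TST, had log2 fold changes from 0.35 to 0.57. The arms overlapped in all 24 genes, and the adjusted p was 1 for each in the paired DESeq2 model. The 12 lowest had a median transcript GC content of 46.9% and the 12 highest one of 62.1%.

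**Figure D1:**
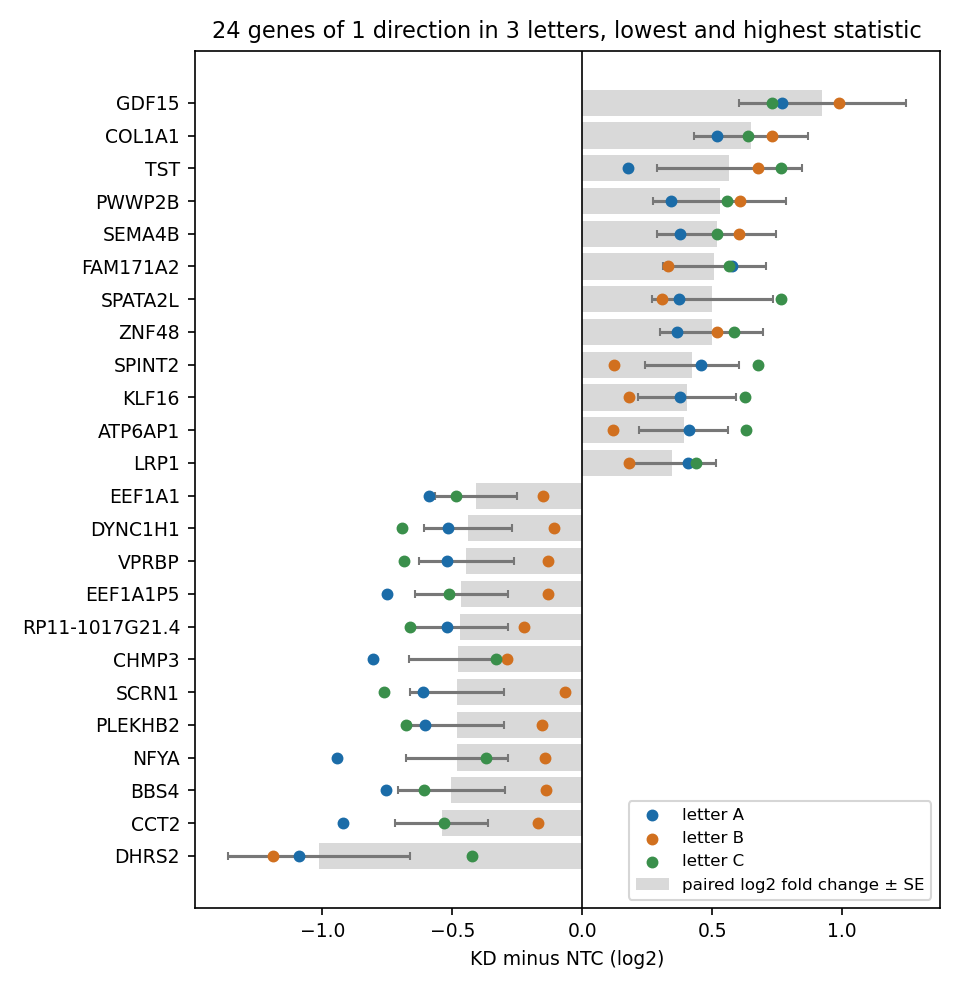
KD minus NTC (log2) of the 12 genes with the lowest and the 12 with the highest statistic; grey bars are paired log2 fold changes with their standard error, and points are the differences within letters A, B and C. For CCT2, EEF1A1 and DYNC1H1 the B point lies nearest to 0, while for GDF15 and COL1A1 the 3 points lie close together.

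The remaining members of the miR-7 circuit outside the locus gave similar values in both arms. OIP5-AS1, the long non-coding RNA also called Cyrano whose miR-7 site triggers decay of that microRNA, was at 29, 179.7 and 92.2 CPM in KD and 37.9, 142 and 112 CPM in NTC. It was lower in the A and C pairs and higher in the B pair, and the log2 fold change was -0.10 (SE 0.19). HNRNPK, an RNA-binding protein whose gene hosts MIR7-1, was at 470, 915 and 459 CPM in KD and 560, 929 and 549 CPM in NTC, with -0.18 (SE 0.15). ZSWIM8, the ubiquitin ligase of target-directed microRNA decay, was at 67.9, 43.8 and 87.5 CPM in KD and 60.9, 39.1 and 69.8 CPM in NTC, with 0.22 (SE 0.17). MIR7-3HG, which hosts another copy of miR-7, had at most 4 counts in any library.

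Of 36 listed targets of miR-7, all were tested and 0 had an unadjusted p under 0.05, beside 0.59% of all genes. The log2 fold change was above 0 in 12 of 36, beside 49.8% of all genes, and the median was -0.08 beside -0.001. KD was lower in all 3 letters in 6 targets and higher in all 3 in 2, beside 10% and 11.7% of all genes. The median moved with the libraries, at -0.14 in the A pair, 0.02 in the B pair and -0.15 in the C pair, was -0.23 without the B pair, and was -0.03 once the trend with GC content was removed. RB1, the retinoblastoma protein that restrains the cell cycle, was at 8.06, 56.7 and 27.2 CPM in KD and 7.12, 48.4 and 22 CPM in NTC (log2 fold change 0.24, SE 0.19). PIK3CD, a catalytic subunit of PI3-kinase, had 0.20 (SE 0.20). MTOR, the growth-control kinase, was at 124, 81.6 and 54.8 CPM in KD and 139, 86.4 and 79.8 CPM in NTC (log2 fold change -0.26, SE 0.17). The receptor IGF1R had -0.23 (SE 0.17). The growth factor receptor EGFR, picked out after its values were seen, had -0.09 (SE 0.26).

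The larger group of genes with the 8-base miR-7 site in an annotated 3′ UTR had 763 members among the genes tested. Of these, 9 had an unadjusted p under 0.05 with lower levels in KD and 0 with higher levels, beside 0.483% and 0.107% of all genes. The log2 fold change was above 0 in 312 (40.9%), beside 49.8% of all genes. In all 3 letters 74 were higher and 77 lower, beside 11.7% and 10% of all genes. The median was -0.05 with the GC trend in place and -0.005 without it, and the members had a median GC content of 46.1% beside 49% of all genes. It was -0.14 in the A pair, 0.09 in the B pair and -0.11 in the C pair. The 9 genes were UGGT1, HSPA9, HERPUD2, SNX30, ARHGAP19, PAFAH1B2, SP1, DHX33 and AMOT. ARHGAP19, a GTPase-activating protein for RhoA, was at 42.4, 215 and 105 CPM in KD and 81.6, 209 and 160 CPM in NTC (log2 fold change -0.50, SE 0.20). SP1, a transcription factor of GC boxes, was at 45.6, 254 and 81.6 CPM in KD and 74.2, 228 and 128 CPM in NTC (log2 fold change -0.40, SE 0.20). HSPA9, the mitochondrial Hsp70, was at 139, 483 and 256 CPM in KD and 196, 487 and 358 CPM in NTC (log2 fold change -0.33, SE 0.17). In each of these 3 the A and C pairs were apart and the B pair was close to equal or reversed.

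The machinery that loads and slices small RNAs was also compared, since the hairpin uses it. Of 31 tested genes of Argonaute and microRNA processing, 0 had an unadjusted p under 0.05, beside 0.59% of all genes. The log2 fold change was above 0 in 8 (25.8%), beside 49.8% of all genes, and the median was -0.14. The median was -0.35 in the A pair, 0.17 in the B pair and -0.36 in the C pair, and it was -0.03 with the GC trend removed. AGO2, the slicing Argonaute, was at 51.6, 80.2 and 77.4 CPM in KD and 66.8, 65.4 and 101 CPM in NTC, with a log2 fold change of -0.15 (SE 0.19). XPO5, which exports hairpins from the nucleus, was at 111, 111 and 52.8 CPM in KD and 126, 121 and 77.9 CPM in NTC, with -0.28 (SE 0.17). DICER1 was at 11 (A), 124 (B) and 31.9 (C) CPM in KD and 11.2, 73.8 and 48.1 CPM in NTC, with 0.05 (SE 0.24). AGO2 and DICER1 were picked out after their values were seen.

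Vector-borne RNA can engage sensors of double-stranded RNA and the interferon system. Of 44 listed genes of RNA sensing and interferon response, 25 had enough counts to be tested. Of these, 0 had an unadjusted p under 0.05, beside 0.59% of all genes. KD was higher in all 3 letters in 6 and lower in all 3 in 1, HERC5, beside 11.7% and 10% of all genes. The median log2 fold change was 0.06, or 0.004 with the GC trend removed. Among the 25 those with a mean of at least 50 counts had a median of -0.05. IRF3, the transcription factor downstream of the sensors, was at 54.4, 31.1 and 40.3 CPM in KD and 48.3, 27.8 and 29.9 CPM in NTC (log2 fold change 0.25, SE 0.18). IFIT1, an interferon-induced protein that binds foreign RNA, stayed between 1.25 and 4.32 CPM in the 6 libraries and was picked out after its values were seen. HERC5, an interferon-induced ligase for ISG15, had -0.35 (SE 0.25).

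In 3 of the stress lists 1 gene each had an unadjusted p under 0.05, beside 0.59% of all genes. Among 27 genes of the integrated stress response, which slows translation and induces amino acid metabolism, MTHFD2 had an unadjusted p under 0.05. This mitochondrial folate enzyme was at 108, 378 and 323 CPM in KD and 151, 399 and 461 CPM in NTC (log2 fold change -0.36, SE 0.16). NUPR1, a stress-induced chromatin protein, had 0.52 (SE 0.34) in the other direction. Of the 27 genes 17 were above 0 (63%), beside 49.8% of all genes. The list median of 0.14 was 0.02 with the GC trend removed. In the heat-shock list of 24 genes HSPA8, the constitutive Hsp70, was at 862, 1727 and 1033 CPM in KD and 1287, 2031 and 1270 CPM in NTC (log2 fold change -0.37, SE 0.15). Among 26 p53 targets GDF15, described above, was the sole one with an unadjusted p under 0.05, and the cell-cycle inhibitor CDKN1A, picked out after its values were seen, had 0.04 (SE 0.18). None of the 24 genes of the unfolded protein response, 29 immediate early genes, 22 NRF2 targets and 26 genes of cholesterol synthesis had an unadjusted p under 0.05 in the paired DESeq2 model. The endoplasmic reticulum chaperones HSPA5 and CANX had -0.26 (SE 0.15) and -0.28 (SE 0.17).

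Genes of growth and basic metabolism mostly had values near 0. In the S phase list of 33 genes RRM1, the large subunit of ribonucleotide reductase, was at 61.8, 391 and 176 CPM in KD and 99.9, 420 and 228 CPM in NTC (log2 fold change -0.39, SE 0.17). The 36 mitosis genes had 0 at an unadjusted p under 0.05, beside 0.59% of all genes. Their median was -0.08, or 0.03 with the GC trend removed. Of 86 ribosomal protein genes KD was lower in all 3 letters in 19 and higher in all 3 in 0, and of 73 nuclear genes for respiratory chain subunits in 12 and 0, with medians of -0.04 and 0.02. The shares of all genes for those counts were 10% and 11.7%. RPL14, a protein of the large ribosomal subunit, was at 623, 1822 and 1446 CPM in KD and 1005, 2062 and 1720 CPM in NTC (log2 fold change -0.37, SE 0.16). In the ribosomal list the median was -0.02 in the A pair, -0.20 in the B pair and 0.16 in the C pair.

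The clustered protocadherins, adhesion proteins of neurons, had a log2 fold change below 0 in all 22 members tested. Of all genes 49.8% were above 0. KD was lower in all 3 letters in 16 protocadherins, beside 10% of all genes. The median of the 22 was -0.11, or -0.20 with the GC trend removed. It lay mostly in the B pair, at -0.04 in A, -0.20 in B and -0.002 in C. At an unadjusted p under 0.05 there were 0 of them, beside 0.59% of all genes. The members share constant exons and their transcripts overlap, so they are not independent, and how the counting divided shared reads is not given in the sources used here. Of 30 SR splicing factors and CLK kinases 5 had a log2 fold change above 0 (16.7%), beside 49.8% of all genes. The list median was -0.13, or -0.05 with the GC trend removed. It was -0.33 in the A pair, 0.21 in the B pair and -0.28 in the C pair. SRSF3 had -0.24 (SE 0.16). Among 76 C/D box small nucleolar RNAs SNORD14D was at 1.55, 11.1 and 2.44 CPM in KD and 2.73, 11.8 and 7.19 CPM in NTC (log2 fold change -0.77, SE 0.34). SNORD14D and SNORD14E, at -0.62 (SE 0.38), lie in introns of the HSPA8 gene named above, so their reads and those of unspliced HSPA8 cannot be told apart. Among 183 zinc-finger genes of chromosome 19, 21 were higher and 7 lower in all 3 letters, beside 11.7% and 10% of all genes, with a median of -0.03, and 0 had an unadjusted p under 0.05. The 13 mitochondrially encoded genes had 9 above 0 (69.2%), beside 49.8% of all genes. Their median was 0.06, or 0.18 with the GC trend removed, and it was -0.065 in the A pair, 0.20 in the B pair and -0.03 in the C pair. With GC offsets 2 of the 13 had an unadjusted DESeq2 p under 0.05, beside 0.709% of all genes. These were MT-CO2 with a log2 fold change of 0.28 and MT-ND3 with 0.33.

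**Figure D2:**
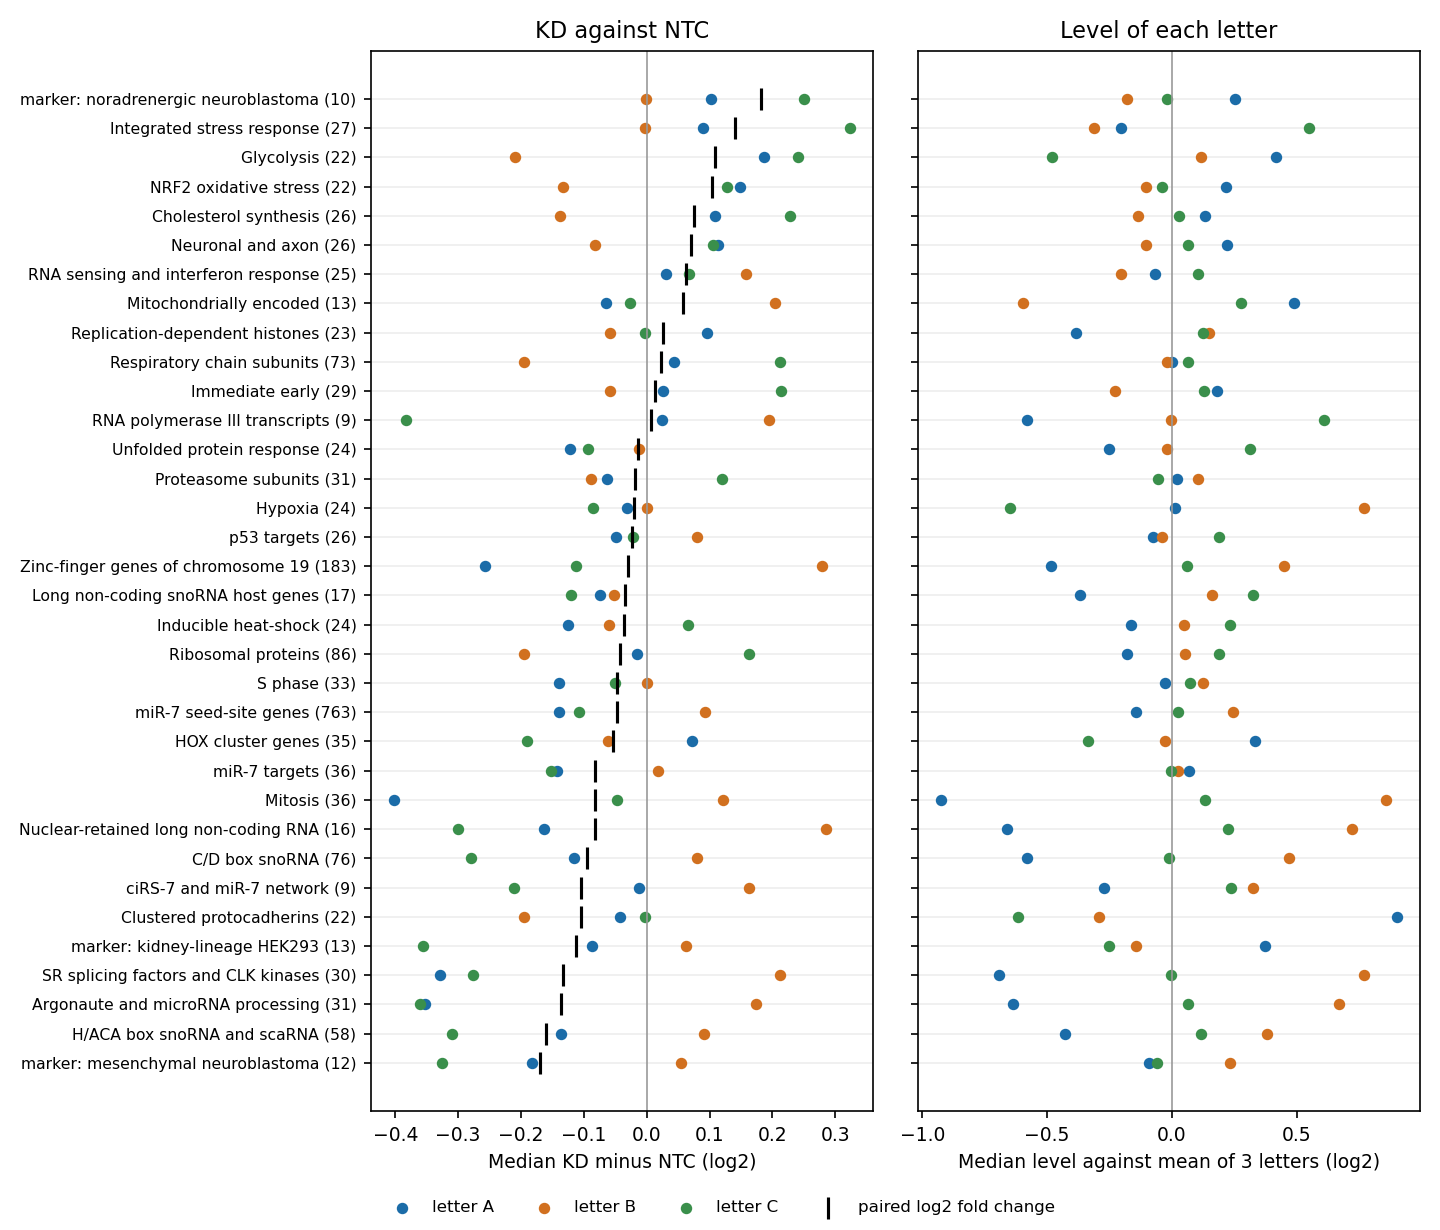
Gene lists with the number of members tested, ordered by the median paired log2 fold change (black bars). The left panel gives the median KD minus NTC of each letter (log2), where B often lies opposite to A and C, and the right panel gives the median level of each letter against the mean of the 3 letters (log2), where mitosis genes run from -0.93 in A to 0.86 in B.

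The letter separated the libraries far more than the arm. Between KD and NTC of the same letter the correlation of log2 CPM over the 13500 genes averaging 50 or more counts was 0.981 to 0.99, and between libraries of the same arm it was 0.656 to 0.942. The first principal component held 85.1% of the variance and set A against B, and the second held 11.2% and set C apart. In the same genes the median range between letters was 0.978 on the log2 scale, beside a median absolute log2 fold change of 0.132 for the arm. These are unlike measures, since the fold change averages pairs whose differences often had opposite signs. Within a letter the median absolute KD minus NTC was 0.212 in A, 0.159 in B and 0.27 in C. A DESeq2 likelihood ratio test of the letter called 11161 of 17806 genes (62.7%), and 4260 without the A pair. The labels do not say what the letters stand for.

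**Figure D3:**
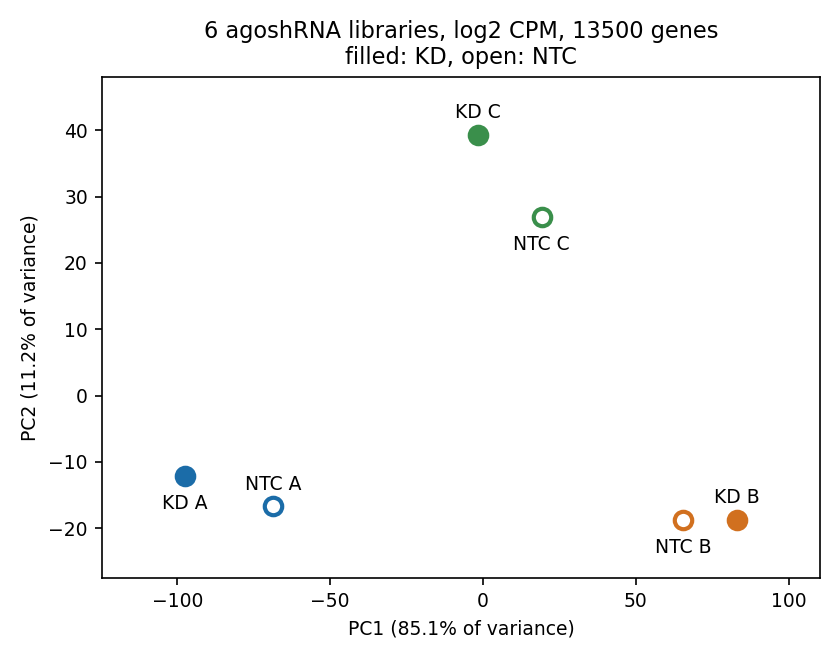
First and second principal components of log2 CPM of the 6 libraries, with filled points for KD and open points for NTC. The 2 libraries of a letter lie together, and A, B and C lie far apart.

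Genes with some of the largest differences between letters included MYC, MALAT1 and POLR2A. MYC, the growth-promoting transcription factor, was at 217 and 213 CPM in KD A and NTC A, at 50 (KD) and 50.7 (NTC) CPM in B, and at 26.4 and 28.9 CPM in C. MALAT1, a long non-coding RNA kept in the nucleus, was at 71.9 and 94.3 CPM in A, 1671 and 1331 CPM in B, and 639 and 916 CPM in C. POLR2A, the large subunit of RNA polymerase II, was at 438 and 382 CPM in A, 100.2 and 88 CPM in B, and 675 and 531 CPM in C. In each of these genes the letters did not overlap. For MALAT1 KD minus NTC was -0.39 in A, 0.33 in B and -0.52 in C on the log2 scale. C was lowest for the insulin receptor substrate IRS4, at 28.1 and 42 CPM beside 129 to 199 CPM in the other 4 libraries, and for the chemokine receptor CXCR4, at 10.6 and 12 CPM beside 42.4 to 48.7 CPM. C was highest for G0S2, an inhibitor of lipolysis, at 31.6 and 25.9 CPM beside 2.19 to 2.88 CPM, and for the inhibin chain INHBE, at 30.4 and 22.3 CPM beside 3.69 to 5.74 CPM.

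Gene lists differed between the letters as well. Of 27 genes of the integrated stress response 26 were called for letter by DESeq2 (96.3%), beside 62.7% of all genes. The median level of the list in C was 0.55 above the mean of the letters on the log2 scale, beside -0.20 in A and -0.31 in B. CHAC1, a glutathione-degrading enzyme of that response, was at 53.4 and 39.2 CPM in KD C and NTC C and at 10.1 to 13 CPM in the other 4 libraries. ASNS, asparagine synthetase, was at 655 and 768 CPM in C, 322 and 297 CPM in B, and 147 and 189 CPM in A. The hypoxia list had 22 of 24 genes called (91.7%) and a median of -0.65 in C beside 0.77 in B. Glycolysis had 19 of 22 called (86.4%), with -0.48 in C and 0.42 in A. HK2, the first enzyme of glycolysis, was at 49.4 and 60.6 CPM in C and at 155 to 188 CPM in the other 4. BNIP3, a mitophagy protein induced by hypoxia, was at 78.6 and 82.4 CPM in C and at 155 to 252 CPM in the other 4. With GC offsets, the median in C was 0.55 for the stress response, -0.70 for hypoxia and -0.52 for glycolysis. These 4 genes were picked out after their values were seen.

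Other lists spread between A and B. Mitosis genes had a median of -0.93 in A and 0.86 in B, with 31 of 36 called for letter (86.1%), beside 62.7% of all genes. TOP2A, the topoisomerase of dividing cells, was at 47.6 and 68.8 CPM in A, 875 and 759 CPM in B, and 298 and 338 CPM in C. TOP2A was picked out after its values were seen. With GC offsets the mitosis medians were -0.23 in A and 0.12 in B. SR splicing factors and CLK kinases had -0.69 in A and 0.77 in B, and with GC offsets -0.03 and 0.02. Mitochondrially encoded genes had 0.49 in A and -0.60 in B, and with GC offsets 1.01 and -1.15.

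Base composition differed between the letters and, within each letter, between the arms. The mean transcript GC content weighted by counts was 52.2% in KD A and 51.3% in NTC A, 47.3% in KD B and 48% in NTC B, and 50.4% in KD C and 49.4% in NTC C. KD was thus the richer library in GC in the A and C pairs and the poorer in the B pair. Across 17485 genes with a known GC content (98.2%), the Spearman correlation of KD minus NTC with GC content was 0.61 in A, -0.41 in B and 0.51 in C, and 0.47 for the paired log2 fold change. These are descriptions over genes, which share libraries and are not replicates. In the fifth of genes with the lowest GC content, up to 41.3%, the median KD minus NTC was -0.36 in A, 0.28 in B and -0.14 in C. In the fifth with the highest, from 58.3%, it was 0.17, -0.06 and 0.35. The 19 genes with an unadjusted p under 0.05 and higher levels in KD had a median GC content of 61.5%, the 86 with lower levels one of 45.2%, and 6 and 38 of them kept an unadjusted p under 0.05 with GC offsets. The part of base composition in those 105 genes was otherwise not tested.

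**Figure D4:**
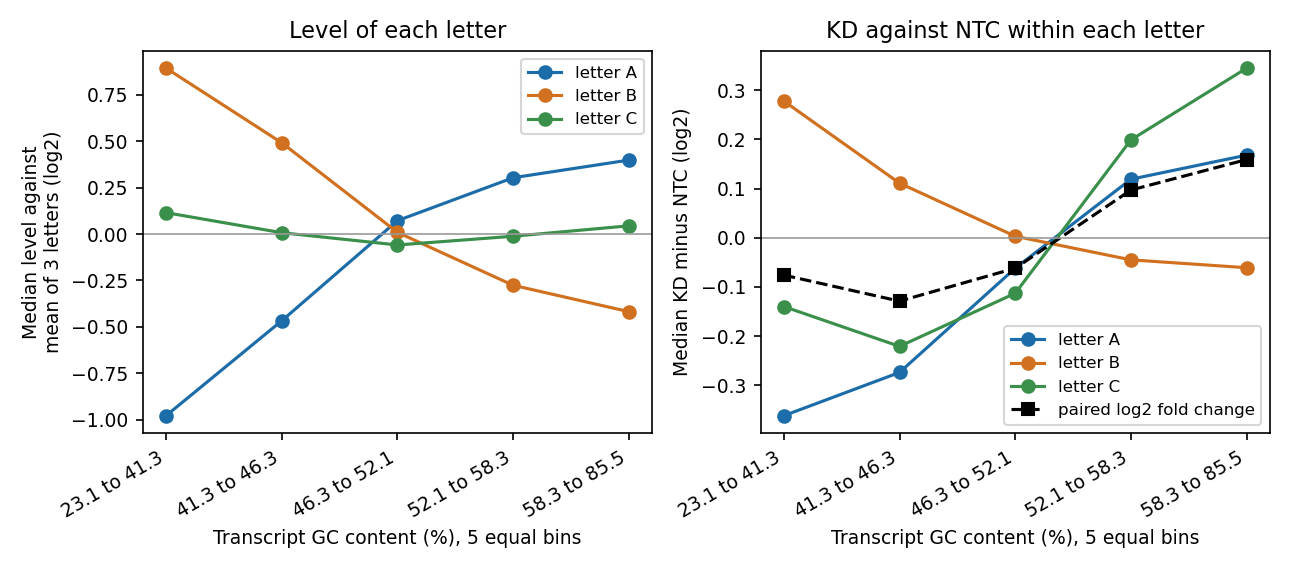
Median level of each letter (left) and median KD minus NTC within each letter (right), both log2, in 5 equal bins of transcript GC content; the dashed line is the paired log2 fold change. A and C slope up from -0.36 and -0.14 to 0.17 and 0.35, and B slopes down from 0.28 to -0.06.

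The KD minus NTC differences of the letters followed 2 patterns. Across genes the differences in A and C correlated with r = 0.45, those in A and B with r = -0.3, and those in B and C with r = -0.32. Each letter has its own control library, so no control is shared. Restricted to letters A and C, which leaves 4 libraries and 1 residual degree of freedom, paired DESeq2 called 173 genes (0.972%), 9 higher and 164 lower in KD. In the B pair, 2 of the 9, SPINT2 and ATP6AP1, and 43 of the 164 had the same sign. The median log2 fold change of the 164 was -0.56 in A and C and their median difference in B was 0.11. The 164 had a median GC content of 44.4% and the 9 one of 55.7%. No label sets the B pair apart from the others, so these values show that 1 pair decides the count and are not a separate comparison of the study.

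The 8 genes with the smallest adjusted p in A and C, named after their values were seen, were DDX17, OGT, DDX5, ZNF445, ARHGAP19, CCT2, RP11-473I1.9 and SON. DDX17, an RNA helicase of transcription and splicing, was at -0.83 in A, 0.49 in B and -0.84 in C, a log2 fold change in A and C of -0.85 (SE 0.13, adjusted p = 7.16e-08 in DESeq2). OGT, the enzyme that attaches GlcNAc to proteins in nucleus and cytoplasm, was at -0.86, 0.62 and -0.82 (adjusted p = 2.93e-07 in DESeq2). DDX5, the paralogue of DDX17, was at -0.65, 0.35 and -0.72, and the splicing scaffold SON at -0.64, 0.35 and -0.68. In these 4 genes, and in ZNF445, ARHGAP19 and RP11-473I1.9, the B pair lay on the other side of 0. With all 3 letters the paired log2 fold changes of DDX17, OGT, DDX5 and SON were -0.40, -0.36, -0.34 and -0.33. None of these genes was called in that fit. The calls in A and C leave out the pair that disagreed, so they cannot decide whether KD and NTC differ in these genes. Among the genes already described, CCT2 (-0.92, -0.17 and -0.53), SCRN1 (-0.61, -0.07 and -0.76), EEF1A1 and DYNC1H1 were each called in A and C. These genes had been chosen for 1 sign in all 3 letters, so their sign in B was fixed by that choice. By list, 5 of 30 SR splicing factors and CLK kinases were called lower (SON, SRSF1, SRSF5, SRSF7 and LUC7L3), beside 0.972% of all genes called in either direction. All 5 were above 0 in the B pair, from 0.10 for SRSF7 to 0.62 for LUC7L3. RRM1 and CDC6 were among the S phase genes called lower. Of 16 nuclear-retained long non-coding RNAs NEAT1 and MALAT1 were called lower, and they stood at 0.53 and 0.33 in the B pair. Of 36 miR-7 targets 1 was called, YY1, a zinc-finger transcription factor, at -0.64 in A, 0.05 in B and -0.31 in C. Of 763 genes with the miR-7 site 15 were called lower, OGT, ARHGAP19 and SP1 among them, and 0 higher. The integrated stress response gave MTHFD2 lower and PHGDH, the first enzyme of serine synthesis, higher, at 0.33 in A, -0.09 in B and 0.53 in C.

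**Figure D5:**
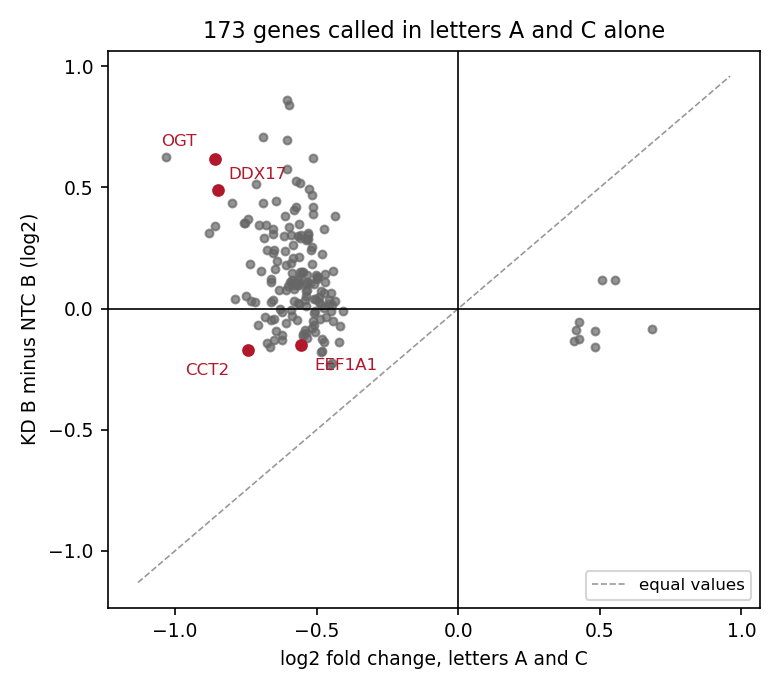
Log2 fold change in letters A and C against KD B minus NTC B (log2) for the 173 genes called in A and C alone; the dashed line marks equal values. Most points on the left lie above 0 in B, among them DDX17 and OGT, while CCT2 and EEF1A1 lie below 0.

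Offsets for GC content gave other genes. In A and C with offsets, chosen after seeing the data, DESeq2 called 109 genes of 17485 (0.623%), 83 higher and 26 lower, and 17 of them were among the 173. DDX17 at -0.58 (SE 0.11, adjusted p = 0.000185 in DESeq2), OGT at -0.56 (SE 0.12, adjusted p = 0.00132 in DESeq2) and DYNC1H1 at -0.67 (SE 0.12, adjusted p = 4.71e-05 in DESeq2) passed under both settings. EEF1A1, at -0.29, had an adjusted DESeq2 p of 0.122. List calls in A and C moved with the offsets as well. Of the 763 genes with the miR-7 site 10 were called higher and 5 lower, and the median log2 fold change in A and C moved from -0.20 to -0.02. In the list of SR splicing factors and CLK kinases SON and SRRM2 were called lower and CLK3 higher, SRSF1, SRSF5, SRSF7 and LUC7L3 had adjusted DESeq2 p values of 0.49, 0.82, 0.362 and 0.609, and the median moved from -0.35 to -0.07. The nuclear-retained RNAs NEAT1 and MALAT1 had adjusted DESeq2 p values of 0.321 and 0.627. The S phase genes, the miR-7 targets and the nuclear-retained RNAs then had 0 calls in DESeq2, and of the stress response PHGDH alone was called. The genes called higher included RPSA, a protein of the small ribosomal subunit, at 0.61 (SE 0.11), with 10 of 86 ribosomal proteins and 7 of 73 respiratory chain subunits. One ribosomal protein, RPL10A, was called lower, at -0.36. Without the offsets these lists had RPL14 called lower and 0 genes called higher. RPSA was at 0.25 in A, -0.19 in B and 0.46 in C before the offsets, and RPSA, RPL10A, SRRM2 and CLK3 were picked out after their values were seen. Of the 83 genes 10 were above 0 in the B pair, and of the 26 genes 10 were below 0. These B differences carry no offsets, unlike the fold changes in A and C beside them. With all 3 letters and offsets, DESeq2 called 0 genes, and DYNC1H1 had the log2 fold change -0.46.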

How the data were processed

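Deposited raw counts per gene of the 6 agoshRNA libraries were used. Per the submitters' processing notes, the authors used Trim Galore, STAR 2.7.3a on hg19, featureCounts and DESeq2. Counting settings and annotation release are not given in the sources used here. The deposited log2 fold change and p-value come from the authors' own DESeq2 run. The table's 42 other count columns were not used. Letters were treated as pairs by the rule set for this comparison. In column deviations from the arm mean, KD and NTC of the same letter correlated with r = 0.96 (A), 0.92 (B) and 0.68 (C). Nothing links letters to the replicate numbers of the labels.

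Tests covered genes that reached 10 counts in 3 or more libraries and were run with DESeq2 1.42.0 (Wald test, letter plus arm) in R 4.3.3, with Benjamini-Hochberg adjustment and a threshold of 0.05. The letter was tested by likelihood ratio. Differences per letter are of log2(CPM + 0.5). GC content is from GENCODE 29. Scripts were tested on simulated data. Alternatives were edgeR 4.0.16, TMM factors, other filters, no letter, leaving out pairs or libraries, and, chosen after seeing the data, GC offsets and letters A and C with GC offsets.

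Named genes are the locus, the 12 lowest and 12 highest statistics with 1 sign in 3 letters and a mean of at least 50 counts, list members with an unadjusted p under 0.05 or the 2 largest per list and direction with a mean of at least 50 counts and 1 sign in 3 letters, and the 4 highest and lowest genes per letter. Marker genes, and OIP5-AS1 and MIR7-3HG of the miR-7 circuit, were named outside these rules. List members called in letters A and C, such as YY1, PHGDH, CDC6, NEAT1 and SRSF1, were named after those calls were seen. Other names are marked. Members and lists were chosen with earlier results of these data known.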

Additional observations from a re-analysis of the deposited data

How the results depend on the processing

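The count of called genes was 0 in DESeq2 and edgeR under each alternative except those with letters A and C alone. Without replicate pair B the paired DESeq2 fit called 173 genes, and without A or C 0. With GC offsets and a replicate block, letters A and C alone gave 109 called genes and 765 at an unadjusted p under 0.05. Genes at an unadjusted p under 0.05 numbered 105 with the letter as a replicate block and 0 with no replicate block, 408 in edgeR with the block, 127 with TMM factors, 124 without a filter on low counts, 82 with a mean of at least 50 counts, 90 in protein-coding genes alone and 124 with GC offsets. Leaving out 1 pair gave 2 to 2172, and leaving out 1 library without the pairing gave 2 to 116. The letter test called 4260 to 9072 genes when 1 pair was left out and 8098 with GC offsets. Of 784 values of the 112 genes named for the locus, the arm or a list (those named for the letter were not counted), 761 kept their direction and side of the threshold and 20, each without pair B, passed it. The signs of LINC00632 (-0.431 to 0.044 when 1 pair was left out), CDR1 (-2.425 to 0.436) and ATF3 (0.02 with GC offsets) turned, and the cause was not tested. Of 238 values of list medians 15 moved by more than the spread between letters. Low counts limit the locus: CDR1 and CDR1-AS had at most 26 counts per library.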
